A study of Camponotus floridanus with 24 samples.

Results

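A miRNA precursor folds into a hairpin, and trimming leaves a short duplex of mature forms, one from each side of the stem. Usually one strand is loaded into an Argonaute protein and guides it to target mRNAs, while its partner, long called the passenger or star strand, is lost. In some hairpins both strands are loaded, and which of them prevails can differ between species, tissues and stages. The 103 forms described here are the second-listed mature forms of ant hairpins that had at least 10 reads in at least 12 of 24 larvae; the tables do not say which strand of the duplex they are. They are 22.4% of the 459 second-listed forms in the tables. They were chosen by these read counts, so their presence and level are described and not tested.

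Small RNA came from whole bodies of Camponotus floridanus, the Florida carpenter ant, whose workers vary widely in size. All animals were female and at the terminal larva stage, the last before pupation. Each of the 24 libraries came from a different larva with its own labelled length, from 4648.07 to 7598.06 µm, and no strain, colony, treatment or age is named. For description the larvae were also taken as 3 classes of 8, the smallest, the middle and the largest. A whole body mixes every tissue, so fewer cells of a type and less RNA per cell cannot be told apart.

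Each table listed 459 hairpin names, once in a first and once in a second block of rows. The headers do not say which arm a block holds or why one form is listed first. The names pair a scaffold with a running number, and 0 of 459 matched the species' RefSeq gene table, so no miRNA name, family or sequence is given here. Libraries held 881734 to 6128791 counted reads. Levels are in CPM, the count per 1000000 reads of the library, and are not divided by the length of the form, which the tables do not hold. Where no read was counted, counting error alone still allows up to 0.489 CPM in the deepest and 3.40 CPM in the shallowest library. The widest gap in the level of a single first-listed form, that of NW_020229223.1_2442 (3.83 log2 units), split the libraries into sets of 9 and 15. These sets are unknown to the labels and had means of 1338546 ± 455827 and 4294665 ± 1070471 reads (SD). The widest gap in a single second-listed form, that of NW_020229269.1_8666 (1.78 log2 units), set apart 6 libraries, which all belong to the 9. The middle size class held 5 larvae of the set of 9, and the smallest and the largest class held 2 each, so size class and library set are not independent. The part of the library sets in the results was not tested beyond the values given with them.

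Of the 459 second-listed forms, 101 had 0 reads in all libraries, and 255 had reads but did not pass the read threshold. The 103 that passed held 99.8% of the reads of the second block. In each of their hairpins the first-listed form passed the same threshold too. Another 130 first-listed forms passed without a passing partner, and for 21 of those the partner had no read in any library. The first-listed forms with a passing partner were the abundant ones, with a median of 660 CPM against 20.7 CPM for those without. The threshold itself favours this difference, since at a given share the partner reaches it more easily in an abundant hairpin.

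Among the 20 most abundant first-listed forms, 19 had a passing second-listed form. The exception was the hairpin NW_020229838.1_36756, whose first-listed form ranked 7 with a mean of 27926 CPM. Its second-listed form had 53 reads over all 24 libraries, 0.00225% of the hairpin's reads. At the other end, the threshold itself was crossed at a few reads. The forms of NW_020229281.1_9951, NW_020229559.1_30017 and NW_020229448.1_25001 passed it in exactly 12 libraries, with means of 3.35, 3.00 and 2.96 CPM. Just outside it lay NW_020229647.1_32008, with 11 libraries and 2.58 CPM, and NW_020229490.1_26825 and NW_020229854.1_40646, with 10 libraries and identical counts at 2.88 CPM. The first of these had 67.3% of its hairpin's reads in the second-listed form, but its first-listed form did not pass either.

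Second-listed forms took a small and even part of every library, and very few of them supplied most of it. The whole second block held 5.07% ± 0.221 of the counted reads (SD, n = 24), from 4.68 to 5.50%. Its share was 4.99% ± 0.250 in the smallest class, 5.12% ± 0.213 in the middle and 5.10% ± 0.204 in the largest, so the classes overlapped. It was 4.99% ± 0.209 in the 15 libraries and 5.20% ± 0.182 in the 9. Since the middle class held 5 of the 9 and each other class 2, the class means also reflect the mix of sets. A single form supplied 31.5% of all second-listed reads, the top 3 supplied 63.0% and the top 10 supplied 85.6%.

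The most abundant second-listed form belonged to NW_020229448.1_24939, with 13013 CPM in the lowest larva, a median of 14695 and 20257 CPM in the highest. It ranked 15 among all forms of either block, above its own first-listed partner at 10225 ± 2667 CPM. Next came NW_020229470.1_26148, whose second-listed form ran from 5573 through a median of 9037 to 13932 CPM beside a far larger first-listed form at 115358 ± 30093 CPM. The second-listed form of NW_020229215.1_1568 ran from 3405 through 7579 to 13432 CPM, also above its partner at 5960 ± 2096 CPM. These leading forms therefore included both kinds of hairpin, those with a dominant first-listed form and those without.

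Levels then dropped quickly. NW_020229841.1_37652 had a mean of 3896 CPM, NW_020229258.1_7567 had 1899, NW_020229348.1_18012 had 1492 and NW_020229414.1_22881 had 1291 CPM. NW_020229870.1_43003, NW_020229329.1_16902 and NW_020229325.1_15814 had 975, 851 and 819 CPM. Over the 103 forms the median was 23.2 CPM, with quartiles of 9.45 and 118 CPM. Every one of the 24 libraries detected 99 or more of the 103 forms, and 73 to 103 of them reached 10 reads in a library.

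**Figure D1:**
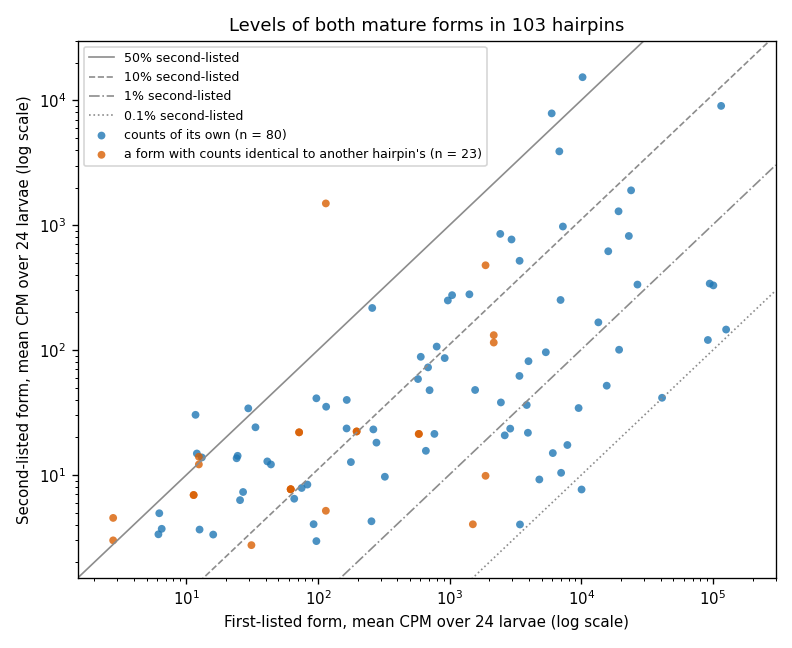
Mean CPM of the second-listed form (vertical log axis) against that of the first-listed form (horizontal log axis) for 103 hairpins over 24 larvae; lines mark second-listed shares of 50, 10, 1 and 0.1%. Points spread over almost the whole range of shares, 10 hairpins lie above the 50% line, and the 23 hairpins in orange have a form whose counts are identical to those of another hairpin.

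The share of a hairpin's reads in its second-listed form, second over first plus second, ran from 0.0746% to 92.7% between hairpins. Its median was 8.57%, with quartiles of 1.93 and 23.4%. In 20 hairpins the share was below 1%, in 38 it lay between 1 and 10%, in 31 between 10 and 40%, in 4 between 40 and 50%, and in 10 above 50%.

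Among the 103 hairpins low shares went with abundant first-listed forms, while the second-listed level differed little between the share groups. The read threshold had left out scarce second-listed forms beforehand, so these hairpins cannot show whether low shares also go with them. From the lowest to the highest of these 5 share groups, the median level of the first-listed form was 7434, 673, 115, 23.01 and 12.8 CPM. The median level of the second-listed form was 22.6, 30.6, 22.3, 18.1 and 22.6 CPM in the same order. Across the 103 hairpins the log10 levels of the forms were related with r = 0.65 (Pearson) and rho = 0.68 (Spearman), and the share against the log10 level of the first-listed form had r of -0.59 and rho of -0.70. These are descriptions across hairpins of the same libraries, and the share contains the first-listed level. Because a second-listed form had to reach the read threshold, scarce hairpins could enter only with a high share.

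The most abundant hairpin of the larvae, NW_020229392.1_21505, shows how one-sided a hairpin can be. Its first-listed form had 125831 ± 21609 CPM. Its second-listed form ran from 83.7 through a median of 149 to 224 CPM, a share of 0.120% ± 0.039 (SD, n = 24). The fold between its forms was thus far larger than any spread between larvae.

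A near-equal or reversed share was found in abundant as well as in scarce hairpins. The share was highest in NW_020229348.1_18012, at 89.8% in the lowest larva, 92.9% in the median and 94.8% in the highest, and it was above 50% in all 24 larvae. Its second-listed form had 1492 ± 337 CPM and its first-listed form 115 ± 15.9 CPM. The counts of that first-listed form were identical in every library to those of the first-listed form of NW_020229835.1_36103 and of the second-listed form of NW_020229492.1_26861. Those reads therefore cannot be assigned to one of the 3 hairpins, and the share of NW_020229348.1_18012 is uncertain to that extent.

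In the abundant hairpins NW_020229448.1_24939 and NW_020229215.1_1568 no counts were shared with another hairpin. The share of NW_020229448.1_24939 was 48.9% in the lowest larva, 60.5% in the median and 71.1% in the highest, and it exceeded 50% in 23 of 24. That of NW_020229215.1_1568 was 46.6, 56.7 and 64.8% in the same order, and exceeded 50% in 22 of 24. In these hairpins the second-listed form was the major one in almost every larva, with at least 4048 reads of it in every library. The form that leads could still differ between larvae, since each hairpin also had 1 or 2 larvae with the first-listed form ahead. These were the 4648.07 µm larva for NW_020229448.1_24939 and the 4942.55 and 6892.55 µm larvae for NW_020229215.1_1568. All of them belong to the set of 9, and no larva of the 15 had a share below 50% in either hairpin. Whether the lead goes with the library set was not tested.

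Close to equality, NW_020229838.1_36746 had a share of 36.7% in the lowest larva, 44.8% in the median and 57.6% in the highest. Its forms had 217 ± 64.1 CPM (second-listed) and 258 ± 84.0 CPM (first-listed), and 6 of 24 larvae had more of the second-listed form. The spread between larvae therefore spanned equality in this hairpin.

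**Figure D2:**
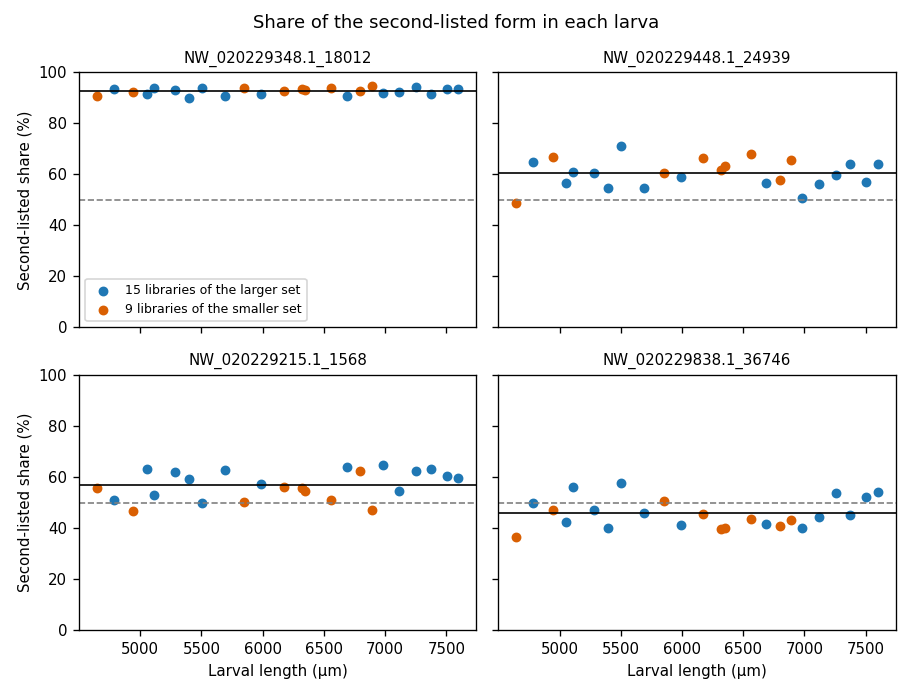
Share of the second-listed form (percent of the hairpin's reads) in each of 24 larvae against labelled length in µm, for the 4 hairpins with a mean share of at least 40% and a median of at least 100 reads in both forms; the solid line is the mean, the dashed line 50%, and colours mark the library sets. The share of NW_020229348.1_18012 stays between 89.8 and 94.8%, that of NW_020229448.1_24939 between 48.9 and 71.1%, that of NW_020229215.1_1568 between 46.6 and 64.8% and that of NW_020229838.1_36746 between 36.7 and 57.6%.

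The other 10 hairpins with a mean share above 40% were scarce, with 2.79 to 33.6 CPM of the first-listed form. NW_020229859.1_41157 had a share of 71.8% ± 4.29 (SD, n = 24), from 64.4 to 78.8%, with every larva above 50%. NW_020229492.1_27013 had 54.3% ± 10.6, NW_020229359.1_18532 had 54.2% ± 7.30 and NW_020229536.1_28834 had 50.95% ± 6.11, and in each of these 3 the range over larvae included 50%. In NW_020229860.1_41327 and NW_020229425.1_23373 the shares were 43.2% ± 8.98 and 41.5% ± 9.74.

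The remaining 4 lay on the scaffold NW_020229559.1 and had first-listed counts identical in pairs, 30017 with 30108 and 30027 with 30118. Their shares were 61.4% ± 13.2 in 30108, 53.0% ± 11.3 in 30027, 50.2% ± 18.9 in 30017 and 49.4% ± 11.2 in 30118. In 30017 the median was 9 reads of the second-listed form and single larvae ran from 0 to 100%, so its share in a single larva is not resolved at this depth. Of the 10 hairpins above 50%, 6 remained when hairpins that share a first-listed count were left out.

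Identical counts touched the group as a whole. A form of 23 of the 103 hairpins had counts equal in all 24 libraries to those of another hairpin, in 15 groups, so the 103 second-listed forms had 97 distinct profiles. In 2 of these groups a second-listed form matched first-listed forms elsewhere, which means that the same counts were listed in one hairpin as the second and in another as the first form. Besides the group of NW_020229348.1_18012, the second-listed form of NW_020229224.1_2717 equalled the first-listed forms of NW_020229391.1_21428 and NW_020229861.1_41699.

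Shares also differed among hairpins with close running numbers on a scaffold. Of the 103, 41 had another of the 103 within 10 running numbers, in 17 groups, and in 7 of these the highest mean share was more than 10 times the lowest. In the longest group, 6 hairpins from NW_020229841.1_37652 to NW_020229841.1_37661, the mean shares were 36.7, 1.77, 20.7, 9.70, 20.6 and 0.528% in order of the running number. The 2 last of them had identical first-listed counts. The running numbers give order but no distance, and hairpins that are not neighbours were not compared.

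Stability of the share between larvae was measured as the SD over larvae of the log2 ratio of second-listed to first-listed counts, each plus 0.5. Over all 103 hairpins the median SD was 0.47 log2 units, where counting alone would give 0.22. To keep counting error small, 43 hairpins with a median of at least 100 reads in both forms were taken further. In these the median SD was 0.35, with a range of 0.15 to 0.79, and counting alone would give 0.084. Larvae are separate animals and libraries, so a spread above that of counting is no finding in itself. Within the library sets the median SD was 0.33 in the 15 and 0.32 in the 9.

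The ratio varied about as much as the levels it is made from. Among the 43 hairpins the median SD of the log2 level was 0.36 for the second-listed and 0.32 for the first-listed form, close to the 0.35 of the ratio. The ratio varied less than the second-listed level in 20 of the 43 and less than the first-listed level in 17. Over all 103 hairpins, these counts were 57 and 34. In 13 of the 43 the highest share of any larva was less than 2 times the lowest.

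The steadiest ratio was that of NW_020229866.1_42649, whose share was 9.997% in the lowest larva, 11.6% in the median and 14.5% in the highest, with an SD of the log2 ratio of 0.15. Both of its forms varied much more than that, with SDs of 0.37 (second-listed) and 0.32 (first-listed) on the log2 scale. NW_020229647.1_32024 was similar, with shares of 12.7, 16.2 and 19.99% and an SD of 0.18 against 0.39 and 0.37 for its forms. In both hairpins the forms rose and fell together from larva to larva. NW_020229302.1_12588, NW_020229359.1_18407 and NW_020229348.1_18012 followed with SDs of 0.23, 0.24 and 0.27.

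The ratio of NW_020229329.1_16902 was the most variable of the 43, with an SD of 0.79. Its share was 12.4% in the lowest larva, 27.9% in the median and 48.4% in the highest. NW_020229282.1_10530 had an SD of 0.76 at a low share, from 0.176 through 0.582 to 0.931%, with means of 0.288% ± 0.152 in the 9 libraries and 0.664% ± 0.116 in the 15. NW_020229870.1_42997 had an SD of 0.75, with shares of 12.3, 32.3 and 47.9%. In NW_020229849.1_39489 and NW_020229841.1_37659 the SDs were 0.68 and 0.64. For NW_020229329.1_16902 and NW_020229870.1_42997 the lowest share was in the 5395.82 and the 5054.15 µm larva, and the highest of both was in the 6892.55 µm larva.

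The ratios of different hairpins were related between larvae, in the same or in opposite directions. A principal component analysis of the standardised log2 ratios of the 43 hairpins put 39.4% of the variance on the first component, 18.04% on the second and 8.81% on the third. On the first component 28 hairpins had a positive and 15 a negative weight. NW_020229870.1_42997 and NW_020229329.1_16902 followed it most closely, with r of 0.94 and 0.93, and NW_020229870.1_43003 and NW_020229258.1_7567 ran against it with r of -0.87 each. Of 903 pairs of hairpins, 134 had r above 0.5 and 139 had r below -0.5, together 30.2%. These correlations share the libraries, and no p is given for them. Some of the hairpins also share counts, such as NW_020229492.1_26861 and NW_020229838.1_36748 with identical first-listed counts, so their ratios are not independent.

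Scores on the first component ran from -6.32 to 6.16. The lowest 6 larvae had scores from -6.32 to -5.59, and the next had -3.40. These 6 had lengths of 4648.07, 5054.15, 5395.82, 5690.32, 6689.42 and 6979.4 µm, so every size class was among them. The classes overlapped over nearly the whole range, from -6.32 to 4.87 in the smallest, -5.94 to 4.86 in the middle and -6.07 to 6.16 in the largest. The library sets overlapped too on this component, with -6.32 to 4.87 in the 15 and -5.63 to 6.16 in the 9. On the second component the sets nearly separated, with -1.40 to 4.01 in the 15 and -4.65 to -0.897 in the 9.

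**Figure D3:**
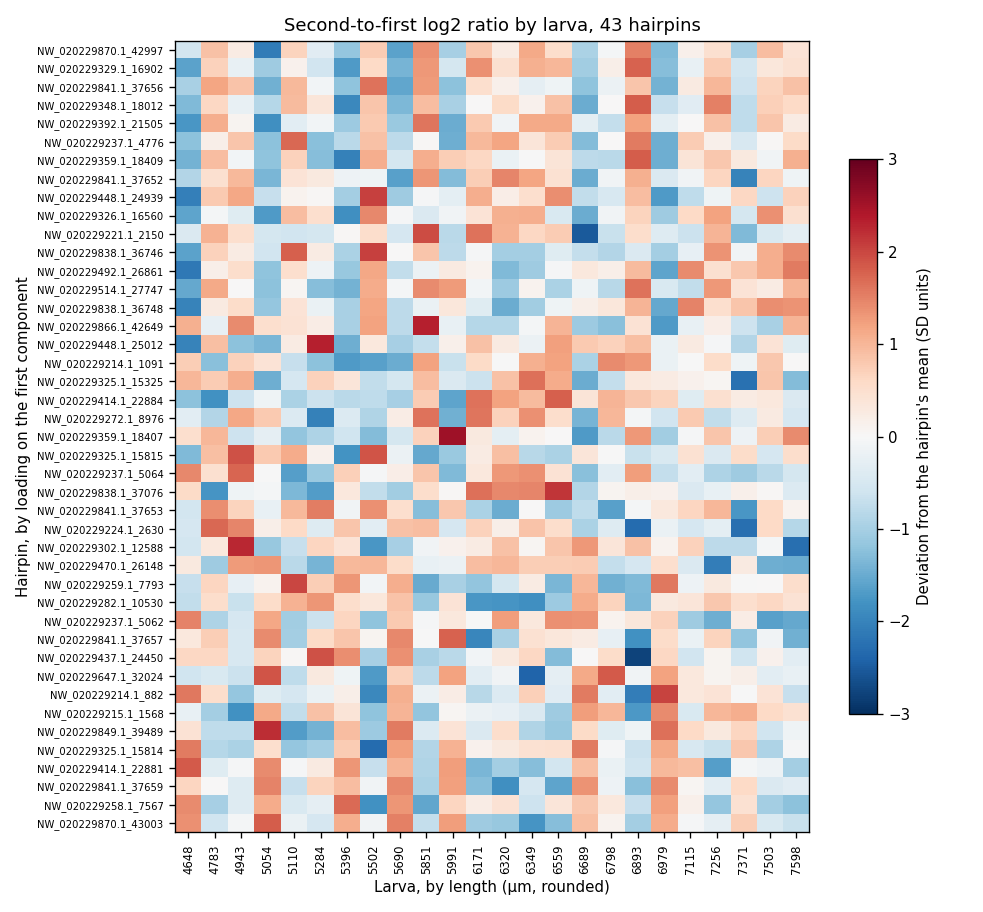
Log2 ratio of the second-listed to the first-listed form in 24 larvae (columns, by length in µm) for 43 hairpins with a median of at least 100 reads in both forms (rows, by weight on the first component), as the deviation from each hairpin's mean in SD units. Columns in which the upper rows are blue and the lower rows red are the larvae with low scores, such as those of 5054.15 and 6979.4 µm, and they are scattered over the range of lengths.

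Whether the forms of one hairpin rose and fell together was asked with the correlation of their log2 CPM over the 24 larvae, with two-sided permutation tests of 100000 resamples and Benjamini-Hochberg adjustment over the 103 hairpins. In 52 hairpins (50.5%) the forms were positively correlated past an adjusted p of 0.05, and in 3 (2.91%) negatively. The median r was 0.45, and 15 hairpins had r below 0. By Spearman's rho 48 hairpins were positive and 3 negative. In the 15 libraries alone 36 were positive and 4 negative by Pearson's r. The lowest r there was -0.79 in NW_020229237.1_4776, which had 0.10 in the 9 libraries and 0.13 over all 24. These counts were looked at after the ratios had been seen.

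The tightest link was in NW_020229214.1_5 and NW_020229214.1_7, hairpins whose levels differ widely between larvae. The first-listed form of NW_020229214.1_5 ran from 173 through a median of 1820 to 43387 CPM, and its second-listed form from 3.43 through 37.3 to 705 CPM. Their r was 0.97 and rho 0.94 (permutation p = 1e-05 each, the smallest possible, adjusted p = 0.000129 and 0.000103). Without the 2 larvae farthest from the median r was 0.96, and it was 0.98 in the 9 libraries and 0.96 in the 15. In NW_020229214.1_7, with 3.21 to 2074 CPM of the first-listed form, r was 0.95 and rho 0.92. The log2 levels of NW_020229214.1_5 had SDs of 1.89 and 1.90, while the log2 ratio had an SD of 0.43, so the share stayed within 1.02 to 3.74%.

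Positive links were also close in NW_020229838.1_37076, NW_020229866.1_42649 and NW_020229647.1_32024, with r of 0.94, 0.91 and 0.89 and rho of 0.93, 0.91 and 0.87 (permutation p = 1e-05 for each, the smallest possible). Taken within each library set, r lay between 0.80 and 0.95 in these 3 hairpins.

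The opposite pattern was clearest in NW_020229329.1_16902, where larvae with more of one form had less of the other. Its first-listed form ran from 1255 through a median of 2207 to 4196 CPM and its second-listed form from 546 through 859 to 1219 CPM. The larva with the least first-listed form, of 6892.55 µm, had 1175 CPM of the second-listed form, and the larva with the most, of 5395.82 µm, had 591 CPM. Pearson's r was -0.76 (permutation p = 3e-05, adjusted p = 0.000281) and rho was -0.74 (p = 4e-05, adjusted p = 0.000375). Without the 2 larvae farthest from the median r was -0.72, and it was -0.86 in the 9 libraries and -0.60 in the 15. With levels scaled by TMM, which corrects library sizes for a few forms taking many reads, r was -0.73 (adjusted p = 0.000542).

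NW_020229258.1_7567 had r of -0.72 and rho of -0.82 (permutation, adjusted p = 0.000294 and 0.000103), and NW_020229359.1_18409 had r of -0.54 and rho of -0.67 (adjusted p = 0.0149 and 0.00295). Neither passed with TMM scaling, where r was -0.39 (permutation, adjusted p = 0.114) and -0.24 (adjusted p = 0.345).

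**Figure D4:**
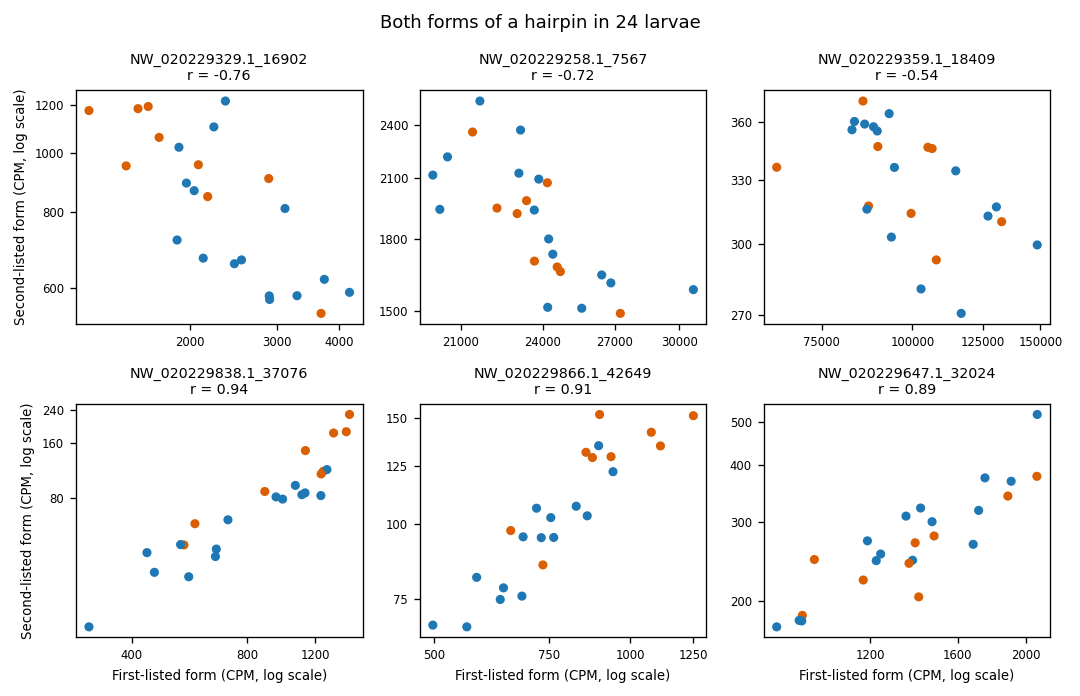
Second-listed against first-listed level in each of 24 larvae (CPM over the library total, log axes) for the 3 hairpins with a negative correlation (top) and 3 with a close positive one (bottom); blue marks the 15 libraries and orange the 9, and r is Pearson's. In NW_020229329.1_16902 the cloud runs downward in both colours, and in NW_020229838.1_37076 it runs upward in both.

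The last comparison asked which second-listed forms changed in level with larval length. All 336 forms past the threshold, first-listed and second-listed, were tested in one fit with edgeR's quasi-likelihood test, with the slope in log2 units per 1000 µm of length. Of the 103 second-listed forms 21 passed an adjusted p of 0.05 (20.4%), 10 rising (9.71%) and 11 falling (10.7%). Because of identical counts, these 21 had 20 distinct profiles. The background over all 336 forms was 20.5% in either direction, 11.6% rising and 8.93% falling, and it was 20.6% among the 233 first-listed forms, 12.4% rising and 8.15% falling. Second-listed forms were thus called about as often as the rest. The median slope was -0.01 over the 103 and 0.02 over all 336.

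Slopes of the rising second-listed forms lay between 0.18 and 1.43, with a median of 0.34, and those of the falling ones between -0.52 and -0.22, with a median of -0.32. The first-listed form was also called in 15 of these 21 hairpins, and in no hairpin were the forms called in opposite directions. In the other 6 only the second-listed form passed, and in 15 more hairpins only the first-listed form did; these differences are the subject of the ratio test below. The sign of the slope was the same in the sets of 9 and 15 libraries for all 21, which had been called on both together. With the library set as a covariate the 21 were all called again, and with the set and log10 total reads together 15 were. Without the 5284.36 µm larva 13 forms were called.

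Among rising forms, that of NW_020229414.1_22884 had the smallest adjusted p. Its level, scaled by TMM, was 307 CPM in the lowest, 465 in the median and 565 in the highest of the smallest larvae, and 670, 786 and 848 CPM in the largest. The smallest and the largest class therefore did not overlap. In the middle class it ran from 456 to 733 CPM and overlapped both. Its slope was 0.36 (SE 0.049, adjusted p = 2.21e-05, edgeR), or 2.07-fold over the span of 2950 µm on the fitted line. The slope of the first-listed form was 0.14 (SE 0.052, adjusted p = 0.0487, edgeR).

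The second rising form, of NW_020229325.1_15815, was much scarcer. It had 22.1, 27.2 and 42.7 CPM in the lowest, median and highest of the smallest larvae, 29.3, 46.5 and 62.9 CPM in the middle and 35.9, 43.2 and 67.5 CPM in the largest. The classes overlapped, and the middle and the largest class had like levels. Its slope was 0.31 (SE 0.077, adjusted p = 0.00467, edgeR), with 0.33 in the 15 libraries and 0.21 in the 9. The slope of the first-listed form was 0.33 (SE 0.091, adjusted p = 0.0115, edgeR), so both forms rose.

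Among falling forms, that of NW_020229841.1_37652 had 4078, 4581 and 5342 CPM in the lowest, median and highest of the smallest larvae and 2384, 3129 and 3689 CPM in the largest. These classes did not overlap, and the middle one, from 3027 to 4676 CPM, overlapped both. Its slope was -0.27 (SE 0.045, adjusted p = 9.03e-05, edgeR), beside -0.28 (SE 0.065, adjusted p = 0.00304) for the first-listed form. The share of the second-listed form was 36.4% ± 3.61 in the smallest class and 36.5% ± 4.34 in the largest (SD, n = 8 each).

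On the same scaffold, the form of NW_020229841.1_37657 had 67.6, 81.1 and 130 CPM in the lowest, median and highest of the smallest larvae, 49.5, 70.8 and 103 CPM in the middle and 36.8, 55.5 and 71.6 CPM in the largest. The smallest and the largest class overlapped slightly. Its slope was -0.32 (SE 0.076, adjusted p = 0.00384, edgeR), with -0.39 in the 15 libraries and -0.21 in the 9. That of the first-listed form was -0.19 (SE 0.071, adjusted p = 0.0561, edgeR).

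**Figure D5:**
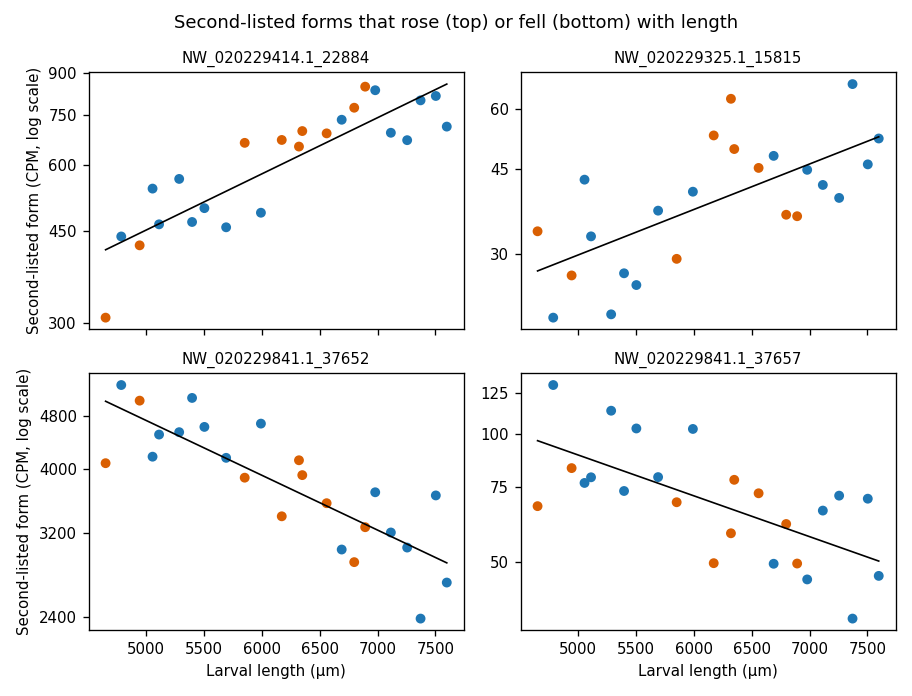
Level of the second-listed form (CPM scaled by TMM, log axis) in each of 24 larvae against labelled length in µm for 2 forms that rose and 2 that fell; lines have the slope fitted by edgeR, blue marks the 15 libraries and orange the 9. NW_020229414.1_22884 rises from 462 to 768 CPM and NW_020229841.1_37652 falls from 4678 to 3106 CPM between the means of the smallest and the largest class.

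Whether the balance of the forms itself changed with length was tested on the log2 ratio of second-listed to first-listed counts with limma. Of the 103 hairpins, 0 passed an adjusted p of 0.05, the lowest adjusted p was 0.110, and 11 had an unadjusted p under 0.05. A quasi-binomial model of the same counts called 1 hairpin and had 19 at an unadjusted p under 0.05. The median slope of the ratio was 0.02, and the median SE 0.10. In 91 of the 103 hairpins the 95% interval of the slope lay within 0.5 log2 units per 1000 µm on either side of 0. The bound of 0.5 was chosen for description, and slopes smaller than it were not excluded. Without the 6559.34 µm larva 1 hairpin passed.

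The hairpin with the smallest p was NW_020229214.1_1089, whose share averaged 0.629% ± 0.084 over the smallest larvae, 0.645% ± 0.270 over those of middle size and 1.20% ± 0.383 over the largest (SD, n = 8 each). The slope of its ratio was 0.41 (SE 0.11, adjusted p = 0.110, limma), with a 95% interval of 0.19 to 0.62, and the quasi-binomial model gave an adjusted p of 0.00140. Fitted apart, the 15 libraries gave 0.46 and the 9 gave 0.14, and with the library set as a covariate it was 0.38 (adjusted p = 0.0247, limma). Its second-listed form had a lowest count of 7 reads in a library, and a median of 71.

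For NW_020229414.1_22884, whose second-listed form had the larger slope of its pair, the share was 3.00% ± 0.344 in the smallest class, 4.28% ± 1.10 in the middle and 3.99% ± 0.477 in the largest. The slope of its ratio was 0.21 (SE 0.073, adjusted p = 0.298, limma), with a 95% interval of 0.07 to 0.36, and with the library set as a covariate 0.23 (adjusted p = 0.0247). The negative slopes with the smallest p were -0.24 in NW_020229224.1_2630 (SE 0.086, adjusted p = 0.298) and -0.24 in NW_020229259.1_7796 (SE 0.094, adjusted p = 0.298), both by limma. Their shares were 1.77% ± 0.452 and 7.64% ± 1.78 in the smallest class and 1.25% ± 0.348 and 5.62% ± 1.23 in the largest.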

How the data were processed

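Per the file headers, each library's table holds a read count per mature form and the authors' RPM, its count per 1000000 counted reads. The deposited RPM equalled the count over the library total to within 0.0050, and the raw counts were used throughout. The submitters' processing notes name Trim Galore 0.6.7 and bcl2fastq 2.20. How reads were aligned and counted, how miRNAs were called and on which genome build is not given in the sources used here.

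Each table has 924 rows, 463 in the first and 461 in the second block. Names repeated in a block (3 and 2) were collapsed to their maximum, and none of these is among the 103 forms. Total counts per library ran from 881734 to 6128791. No molecular identifiers are mentioned, so reads are not independent molecules, and each larva is 1 sample. Nothing in the labels gives a batch; the sets of 9 and 15 libraries come from the widest gap in the level of any first-listed form with 5 or more libraries on either side.

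Levels over length were tested with edgeR 4.0.16 (TMM, quasi-likelihood, over 336 forms) in R 4.3.3, and log2 ratios with limma 3.58.1 over 103 hairpins, each with Benjamini-Hochberg adjustment. CPM is over the library total except where TMM scaling is named. Alternatives covered scaling, count filters, DESeq2 1.42.0, covariates, library sets, identical counts and leaving out each larva.

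The forms and the rules for naming them were chosen with earlier results of these data known. Named hairpins are the 10 most abundant second-listed forms, those with a mean share above 40%, the 5 steadiest and the 5 most variable ratios, the 3 forms on either side of the read threshold, 2 rising and 2 falling forms, and the 2 ratios of smallest p per direction. Further hairpins, such as those in the correlation of the forms, were picked once their values had been seen. No sequence was in the sources used here.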

Additional observations from a re-analysis of the deposited data

How the results depend on the processing

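The count of 21 second-listed forms changing with length was 16 to 27 under other settings for scaling, filter, model and covariate. It was 14 in the 15 libraries alone, 4 (1 rising, 3 falling) in the 9, and 13 to 23 when single larvae were left out. The split of 10 rising and 11 falling forms was 6 and 14 with no scaling factor, 6 and 10 with upper-quartile factors and 8 and 14 with repeated names summed. The ratio test called 0 hairpins, 1 with a pseudocount of 5, with the quasi-binomial model, with 50 reads required, with log10 reads as a covariate, in the 15 libraries alone or with set and log10 reads together, and 2 with the set as a covariate; leaving out a larva gave 0 to 1, the latter without the 6559.34 µm larva. The median share of 8.57% was 7.11% with 50 reads required and 9.72% in the 9 libraries. With 50 reads required 5 hairpins had a share above 50%, and 6 without shared first-listed counts, against 10. The median SD of the ratio, 0.351, was 0.384 with 50 reads required, 0.331 in the 15 libraries and 0.320 in the 9. Positive correlations numbered 21 of the 43 well-covered hairpins, where fewer were tested, and negative ones 1 with TMM scaling, against 52 and 3. In the 15 libraries alone 36 were positive and 4 negative. No named slope changed sign, but medians near 0 did under some settings. For example, that of all forms was 0.02, -0.01 with upper-quartile factors and -0.02 with none, and that of the ratios 0.02 and -0.01 with log10 reads. The causes were not tested. The correlation settings and the fit with set and log10 reads were chosen after seeing the data. No paired analysis was possible because the 24 larvae form 1 group. Depth limits the shares of scarce hairpins, since 60 of the 103 had a median under 100 reads in at least one form.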
